A study of Mus musculus with 16 samples.

Results

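HR line 3 is 1 of 4 replicate lines of mice bred for high voluntary wheel running (High Runner, HR), and its vomeronasal organ (VNO) was represented by 2 RNA-seq libraries, 1 from a pool of females and 1 from a pool of males. These 2 libraries were compared with the 6 libraries of the other HR lines (lines 6, 7 and 8, 1 female and 1 male pool each), out of 16 libraries in all. The remaining 8 libraries came from 4 non-selected Control lines (lines 1, 2, 4 and 5). All lines descend from the outbred Hsd:ICR stock, all mice were 12 weeks old and of generation 88, and each pool held the VNOs of 3 mice. No treatment or transgene separated the groups. The comparison asks which genes were expressed at a level of its own in 1 selected line, in both pools of that line. A shifted gene is defined here by 2 conditions. It passed an adjusted *p* of 0.05 in edgeR's quasi-likelihood test, and in each table its line 3 library lay above, or below, all 3 other HR libraries.

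The VNO detects pheromones and other social chemosignals. Its vomeronasal sensory neurons (VSNs) fall into an apical layer, which expresses V1R receptors with the G protein subunit *Gnai2*, and a basal layer, which expresses V2R receptors with *Gnao1* and the nonclassical class I molecules of the H2-Mv family. Each VSN uses a very small set of receptors, so the abundance of a receptor in a pool depends on how many VSNs chose it as well as on how much each of them transcribes. In bulk RNA, fewer cells of a type and less RNA per cell cannot be told apart. Selection lines are small closed populations in which alleles can drift to fixation. The male and the female pool of line 3 therefore share a genetic history, and at the level of lines the comparison is 1 against 3.

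Reads counted on genes numbered 26306856 in the female and 46393554 in the male library of line 3, and 34596110 to 44183075 in the other HR libraries. Reads were aligned with no mismatch accepted, so a read that covers a base where a line differs from the reference genome is lost, as is a read shared by paralogs. Values below are in CPM, counts scaled so that all libraries have the same total (TMM over all 16 libraries), without a term for gene length, so levels of different genes are not compared. Log2 fold changes (LFC) are those of the fit to the 8 HR libraries, line 3 minus the other HR lines, given as the value ± its standard error from the fit. The count tables hold 1 sex each, and sex was a term in the fit.

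Summed levels of marker genes, read here as makeup, differed between line 3 and the other HR libraries in both pools. The summed CPM of 18 VSN marker genes was 5089 in the female and 5099 in the male pool of line 3, against 5802 to 7118 in the other HR libraries. The connective tissue, endothelial and mural cell lists were added after values were seen. A lack of overlap in them supports nothing beyond itself. The summed CPM of 10 connective tissue genes was 3087 and 5357 in line 3, against 1142 to 2178. For 10 endothelial genes it was 243 and 222 against 90.8 to 142, and for 10 mural cell genes 1303 and 1063 against 199 to 739. In none of these 4 lists did line 3 overlap the other HR libraries. In each of them, though, at least 1 pool of line 3 lay within the Control libraries (4358 to 7328, 1447 to 4082, 119 to 324 and 272 to 1735 CPM). A lack of overlap was not particular to these lists. It was also seen for skeletal muscle genes (49.5 and 70.1 against 75.2 to 123 CPM) and for ER chaperone and stress genes (7360 and 7287 against 7538 to 8385 CPM). Other lists, such as keratins (1199 and 1162 against 1087 to 1259 CPM), did overlap. The part of this makeup in the results below was not tested, and the fits named beside them cannot separate it from line. *Omp*, the marker of mature VSNs, was present in all libraries at 1595 and 1612 CPM in line 3 and 1870 to 2582 CPM in the other HR libraries, with an adjusted *p* of 0.127.

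**Figure D1:**
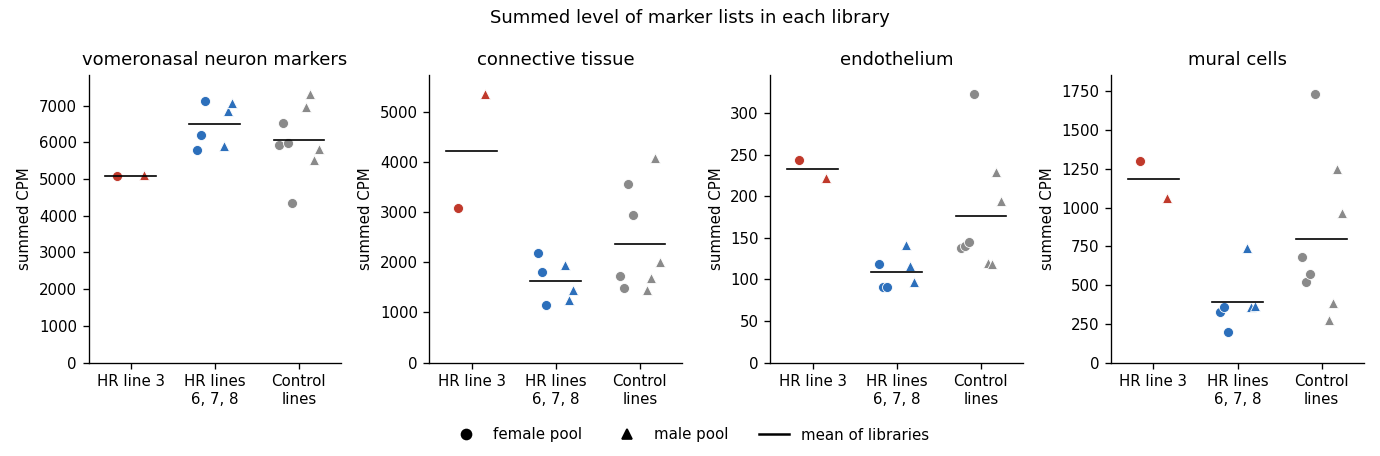
Summed CPM of the marker lists (y axis, CPM) in each of the 16 libraries, with circles for female pools, triangles for male pools and a bar for the mean of the libraries of a group. Both line 3 libraries lie below the other HR libraries for VSN markers (5089 and 5099 CPM against 5802 or more). They lie above them for connective tissue, endothelium and mural cells, lists that were added after values were seen.

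Of 16810 genes tested, 596 (3.55%) passed the threshold in line 3 against the other HR lines, 393 higher (2.34%) and 203 lower (1.21%), and 4543 had an unadjusted *p* under 0.05. All 596 were also outside the other HR libraries on the same side in both tables, so the shifted genes were the same 596 (3.55%, 2.34% and 1.21% again). Their median absolute log2 fold change was 0.97, and 290 of them changed by 1 or more, 235 higher and 55 lower. Without any model, 680 genes (4.05%) lay outside the other HR libraries in both tables by 1 or more in log2 CPM, 594 higher and 86 lower. The same test found 10 shifted genes for line 6 against the other HR lines (0.0595%), 11 for line 7 (0.0654%) and 20 for line 8 (0.119%). In those 3 fits line 3 was itself among the other HR lines. Without any model or limit on size, 5968 genes lay outside the other HR libraries on the same side in both tables for line 3. That number was 2268 for line 6, 2904 for line 7 and 4732 for line 8. The difference between the lines in either count was not tested. The number for line 3 depended on the libraries in the fit: it was 12 without the female pool of line 3 and 451 without its male pool, the latter 103 higher and 348 lower. Without the male or the female pool of line 6 it was 1762 or 316, for line 7 it was 102 or 119, and for line 8 it was 200 or 89. Without both pools of line 6, 7 or 8 it was 2983, 36 or 88. With the counts of each line summed, so that 1 line stood against 3, edgeR called 0 genes (2534 at an unadjusted *p* under 0.05), while DESeq2 on the 8 libraries called 2423. When the summed counts of 5 neuron markers (*Omp*, *Gnao1*, *Gnai2*, *Gng8* and *Trpc2*) set the library size, 1705 genes were higher and 40 lower, and the median log2 fold change of all genes was 0.40 in place of -0.02.

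Genes chosen in 1 pool of line 3 could be read in the other. Of 1686 genes that lay outside the other HR females by 1 or more in log2 CPM, 86.5% had the same sign in males and 41.7% reached the same size there. Of 1639 genes chosen in males, 89.3% had the same sign in females and 46.1% the same size. Over all tested genes 69.5% had the same sign. The share was smallest for the 727 genes that were lower in the female pool, of which 75% kept the sign and 12.8% the size in males.

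**Figure D2:**
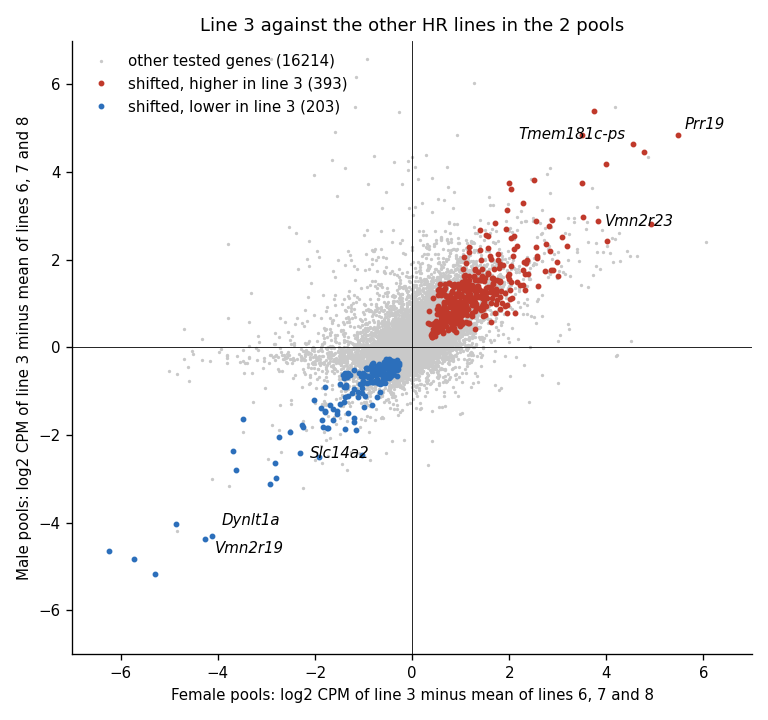
Log2 CPM of line 3 minus the mean of lines 6, 7 and 8 in females (x axis) and in males (y axis) for each tested gene, with shifted genes in red (393 higher) and blue (203 lower). The shifted genes lie in the lower left and upper right parts of the plot, and 1 gene falls outside the axes.

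A run of 5 shifted receptor genes lies on chromosome 6. *Vmn2r19*, *Vmn2r22*, *Vmn2r23*, *Vmn2r24* and *Vmn2r25* all encode V2R receptors and all were shifted, 1 of them higher and the others lower. Of 21 shifted receptor genes, 18 have an upstream sequence in the RefSeq table of build GRCm38.p6. The 250 bases before the annotated start are shown for 4 of the chromosome 6 genes, because these neighbours share a run of upstream sequence and yet moved in opposite directions. *Vmn2r19* lies on the plus strand (window chr6:123308083-123308332), as do *Vmn2r23* (chr6:123702571-123702820) and *Vmn2r24* (chr6:123778721-123778970), and *Vmn2r25* lies on the minus strand (chr6:123853191-123853440). Capitals mark the longest run of bases that all 4 windows share, which is 20 bases long and begins 166 to 178 bases before the start. The RefSeq start is that of the GENCODE gene model for *Vmn2r19* and lies inside the GENCODE model for the other 3.
Vmn2r19: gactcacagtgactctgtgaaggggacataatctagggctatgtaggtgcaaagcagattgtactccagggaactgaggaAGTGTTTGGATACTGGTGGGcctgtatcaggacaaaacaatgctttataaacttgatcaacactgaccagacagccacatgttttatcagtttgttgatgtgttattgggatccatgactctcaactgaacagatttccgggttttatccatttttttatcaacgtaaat
Vmn2r23: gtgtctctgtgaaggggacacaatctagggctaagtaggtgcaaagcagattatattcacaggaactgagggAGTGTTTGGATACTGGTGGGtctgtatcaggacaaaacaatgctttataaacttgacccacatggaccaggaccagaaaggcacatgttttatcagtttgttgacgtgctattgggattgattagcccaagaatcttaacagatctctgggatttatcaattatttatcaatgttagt
Vmn2r24: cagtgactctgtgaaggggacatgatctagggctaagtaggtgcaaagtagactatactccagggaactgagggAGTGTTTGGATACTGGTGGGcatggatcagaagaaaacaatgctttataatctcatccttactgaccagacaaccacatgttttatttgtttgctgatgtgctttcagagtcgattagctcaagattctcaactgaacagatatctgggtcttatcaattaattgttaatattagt
Vmn2r25: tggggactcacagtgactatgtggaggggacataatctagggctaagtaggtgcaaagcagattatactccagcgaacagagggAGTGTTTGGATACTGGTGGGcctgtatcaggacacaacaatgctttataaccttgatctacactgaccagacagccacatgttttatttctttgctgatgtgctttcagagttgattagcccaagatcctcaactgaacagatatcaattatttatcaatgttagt

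The run of AGTGTTTGGATACTGGTGGG, read on both strands, was found in 5 of 32817 windows of this length, and all 5 belong to V2R genes of chromosome 6, the fifth being *Vmn2r26*. Of these 5 genes, 1 rose (*Vmn2r23*), 3 fell (*Vmn2r19*, *Vmn2r24*, *Vmn2r25*) and *Vmn2r26* had a log2 fold change of -0.85 with an adjusted *p* of 0.0563. Of 108 tested V2R genes whose windows lack the run, 10 fell and 0 rose. These counts leave out some of the 122 V2R genes tested, among them *Vmn2r123*, the other V2R gene that rose. The run was found from these genes, so the match is a description of the gene family and not of a binding site.

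*Vmn2r19* (chr6:123308333-123336537, plus strand) was almost absent from line 3, with 0.917 CPM in the female and 0.779 CPM in the male pool, from 25 and 33 reads. The other HR libraries held 13.9 to 20 CPM with a median of 18.9, so the groups did not overlap. Line 3 differed by an LFC of -4.42 ± 0.21 (adjusted *p* = 0.000317, edgeR's quasi-likelihood test). Among Control lines, both pools of line 1 were as low as line 3, with 0.847 CPM in females and 1.13 CPM in males, and the other Control libraries held 11.3 to 20.1 CPM. Nearly all of its sequence can be assigned, since 95.7% of the 75-base words of its transcripts occur in no other gene.

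*Vmn2r23* (chr6:123702670-123747657, plus strand) showed the opposite pattern. It had 16.4 CPM in the female and 11.3 CPM in the male pool of line 3, and 0.926 to 1.55 CPM (median 1.35) in the other HR libraries. This was an LFC of 3.43 ± 0.22 (adjusted *p* = 0.000952). Control line 1 again stood with line 3, at 40.4 and 35.6 CPM, while the other Control lines held 0.670 to 1.60 CPM. Line 3 and Control line 1 were thus the libraries with low *Vmn2r19* and high *Vmn2r23* together.

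*Vmn2r25* (chr6:123821646-123853463, minus strand) did not follow Control line 1. Line 3 had 16.7 and 10.7 CPM, the other HR libraries 30.2 to 42.6 CPM and the Control libraries 17.9 to 34.5 CPM, so that line 3 lay below all other libraries. The LFC was -1.41 ± 0.13 against the other HR lines (adjusted *p* = 0.00423) and -0.97 against Control lines (adjusted *p* = 0.0409, edgeR on all 16 libraries). Its neighbour *Vmn2r24*, which overlaps it on the other strand, had 290 and 232 reads in line 3 against 642 to 979 reads, an LFC of -1.52 ± 0.24 (adjusted *p* = 0.0283). The sources used here do not give the use of strand in counting, so reads from the overlap of this pair cannot be assigned. *Vmn2r22* was lower by less, with an LFC of -0.68 ± 0.14 (adjusted *p* = 0.0458).

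Some V1R genes in a stretch of chromosome 13 were lower in line 3. Shifted genes set the ends of this stretch, which raises their share within it. *Vmn1r189*, *Vmn1r198*, *Vmn1r210*, *Vmn1r212* and *Vmn1r215* lie within 1.08 Mb (chr13:22002173-23078006) that also holds the shifted gene *Prss16*, and these 6 fell of 32 genes tested there. *Vmn1r212* (chr13:22883042-22884205, minus strand) had 1 read in the female and 9 in the male pool of line 3, against 177 to 335 reads in the other HR libraries, or 0.0367 and 0.212 CPM against 4.31 to 8.67 CPM. Control lines 2 and 4 were as low as line 3, with at most 0.0933 CPM, and Control lines 1 and 5 held 7.72 to 9.73 CPM. The adjusted *p* against the other HR lines was 0.0105. *Vmn1r215* had the same split, with 1.17 and 0.684 CPM in line 3, 3.13 to 6.42 CPM in the other HR libraries (adjusted *p* = 0.0375), 0.105 to 0.896 CPM in Control lines 2 and 4, and 3.55 to 6.35 CPM in Control lines 1 and 5. *Vmn1r189*, *Vmn1r198* and *Vmn1r210* differed by less, with log2 fold changes of -1.41, -0.64 and -0.66.

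Other V2R genes were shifted singly. *Vmn2r123*, for which the annotation used here gives no position, had 14.4 and 11.8 CPM in line 3 and 1.53 to 2.37 CPM in the other HR libraries. The LFC came to 2.82 ± 0.16 (adjusted *p* = 0.000549), and Control line 5 was also high, with 15.9 CPM in females and 5.0 CPM in males. *Vmn2r106* on chromosome 17 was low in line 3, at 0.477 and 0.661 CPM, against 2.75 to 11.7 CPM (LFC -3.28 ± 0.63, adjusted *p* = 0.0398). *Vmn2r92*, *Vmn2r85*, *Vmn2r49* and *Vmn2r60* fell by 1.67, 1.44, 1.23 and 1.05 on the log2 scale. *Vmn2r82*, *Vmn2r8*, *Vmn2r56* and *Vmn2r79* fell by 0.68, 0.62, 0.56 and 0.52, and the V1R gene *Vmn1r16* by 0.84. Only 24% of the 75-base words of *Vmn2r49* are its own, and *Vmn2r42* is the gene that shares the most with it.

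Over the families, 0 V1R genes rose and 6 fell of 159 tested, which is 3.77% called, close to the 3.55% of all genes. Of 122 V2R genes tested 2 rose and 13 fell, which is 12.3%. The median log2 fold change was -0.27 over V1R and -0.48 over V2R genes, beside -0.02 over all tested genes. When summed neuron markers set the library size, the V1R median was 0.16 and the V2R median -0.05, beside 0.40 over all tested genes. This scaling moves all genes by nearly the same amount, so a family's distance from the median of all genes was bound to stay. It gave 1 V1R gene higher and 3 lower, and 5 V2R genes higher and 5 lower. With the connective tissue and vessel markers as a term the V1R and V2R medians were 0.31 and -0.22. Neuron scaling left *Vmn2r19* at -4.01 and *Vmn2r23* at 3.85, changes too large for that common move to turn. With the marker term, *Vmn2r19* was at -4.69 with an adjusted *p* of 0.0441, and *Vmn2r23* was at 3.60, as large as without it, with an adjusted *p* of 0.302.

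**Figure D3:**
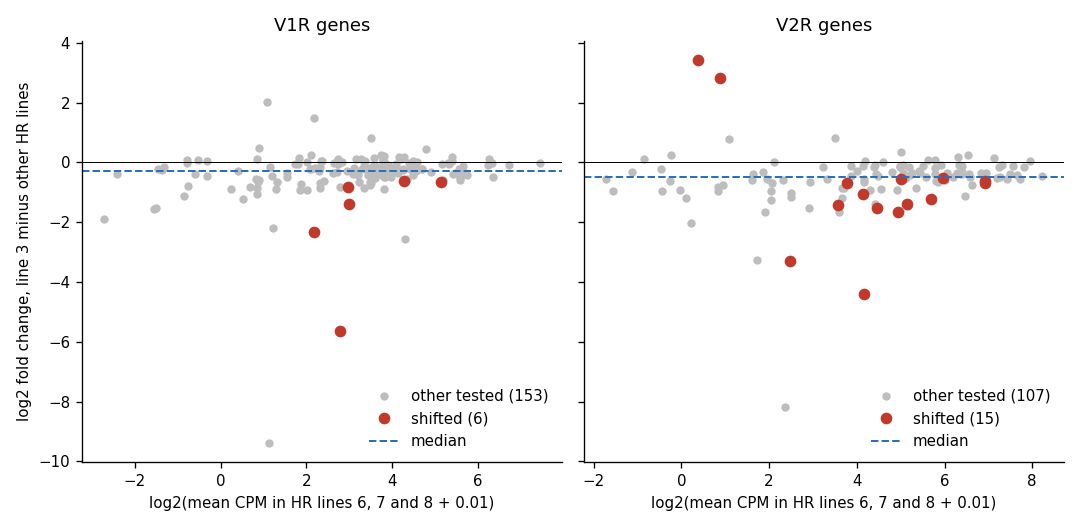
Log2 fold change of line 3 against the other HR lines (y axis) by mean level in the other HR lines (x axis, log2 of CPM plus 0.01) for 159 V1R and 122 V2R genes, with shifted genes in red and the family median as a dashed line. Most receptors lie below 0, with medians of -0.27 and -0.48, and the shifted genes of large size include *Vmn2r23* at 3.43 and *Vmn2r19* at -4.42.

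The 19 receptors that the study named in its comparison of HR with Control lines were chosen on these same samples. In line 3 against the other HR lines, 1 of them rose (*Vmn2r23*) and 1 fell (*Vmn2r8*, adjusted *p* = 0.0476, but 0.0511 with DESeq2's size factors in edgeR). Their summed level was 419 and 386 CPM in line 3, below the 517 to 628 CPM of the other HR libraries, and the Control libraries held 292 to 426 CPM. *Fpr3*, a formyl peptide receptor of basal VSNs, had a mean of 12 CPM in line 3 and 15.8 CPM in the other HR lines, with an adjusted *p* of 0.0729.

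Among genes that accompany the receptors in VSNs, *H2-M10.3*, an H2-Mv molecule of basal VSNs, was lower in line 3. It had 149 and 161 CPM there, 262 to 384 CPM in the other HR libraries and 173 to 367 CPM in the Control libraries, so that line 3 lay below all 14 others. Line 3 differed by an LFC of -1.08 ± 0.14 (adjusted *p* = 0.0157), with an adjusted *p* of 0.0552 under neuron scaling. It was the only 1 of 9 H2-Mv genes called, although all 9 had negative fold changes, with a median of -0.48. Of 17 tested VSN markers 3 fell (17.6%), beside 3.55% of all genes called. They were the calcium-activated chloride channel gene *Ano2*, the calreticulin gene *Calr4* and the transcription factor gene *Tfap2e*. On the log2 scale they fell by 0.52, 0.53 and 0.55. The adjusted *p* was 0.0997 for *Gnao1* and 0.231 for *Gnai2*. Under neuron scaling none of the 3 was called, with log2 fold changes of -0.09, -0.10 and -0.11. That scaling raised the median of all genes from -0.02 to 0.40.

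**Figure D4:**
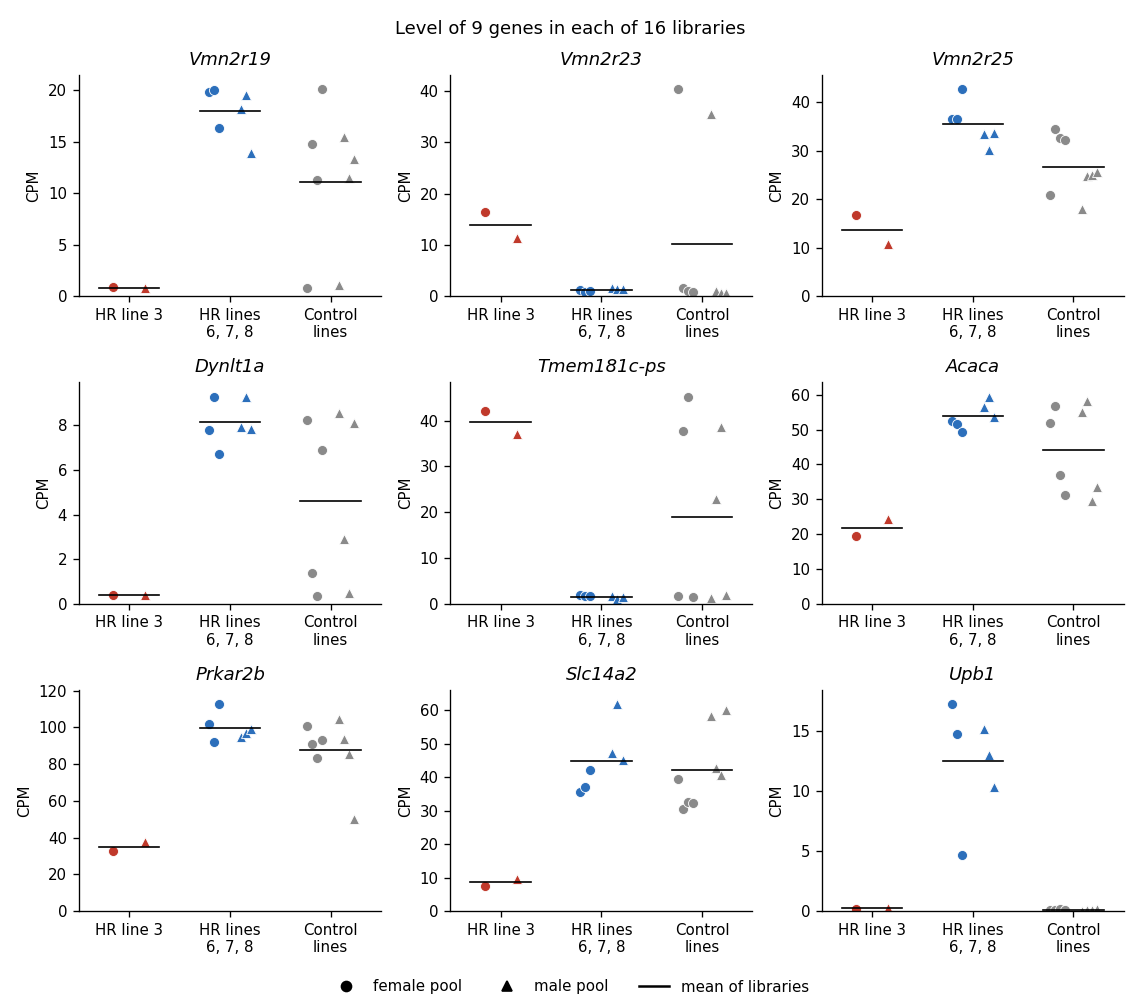
Level (y axis, CPM, linear and from 0) of 9 genes in each of 16 libraries, with circles for female pools, triangles for male pools and a bar for the mean of the libraries of a group. Line 3 lies apart from HR lines 6, 7 and 8 in every panel, and single Control lines reach the line 3 level for *Vmn2r19*, *Vmn2r23*, *Dynlt1a* and *Tmem181c-ps*, and all Control lines are low for *Upb1*.

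The smallest *p* of all belonged to the pseudogene *Tmem181c-ps* (chr17:6613753-6639790, minus strand). It had 42.1 CPM in the female and 37.2 CPM in the male pool of line 3 and at most 1.88 CPM (median 1.66) in the other HR libraries. This was an LFC of 4.63 ± 0.15 (adjusted *p* = 3.02e-05). *Dynlt1a*, nearby on the same chromosome (chr17:6306340-6317500, minus strand) and a light chain of the dynein motor, went the other way, with 0.403 and 0.378 CPM in line 3 against 6.73 to 9.28 CPM (LFC -4.39 ± 0.23, adjusted *p* = 0.000421). *Tmem181a*, which overlaps *Dynlt1a* on the other strand and was chosen after its values were seen, fell by 1.13 ± 0.12 on the log2 scale (adjusted *p* = 0.00876). Control lines 2 and 4 shared both extremes with line 3, with 23 to 45.2 CPM of *Tmem181c-ps* and 0.354 to 2.91 CPM of *Dynlt1a*. Control lines 1 and 5 had 1.33 to 1.93 CPM and 6.88 to 8.56 CPM. Both genes have close copies: 39.4% of the 75-base words of *Tmem181c-ps* and 37.6% of those of *Dynlt1a* occur in no other gene.

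Several enzymes, transporters and signalling proteins had a level in line 3 below every other library. *Acaca*, acetyl-CoA carboxylase of fatty acid synthesis (chr11:84129672-84401651), had 19.4 and 24.3 CPM in line 3, 49.2 to 59.4 CPM in the other HR libraries and 29.4 to 58.4 CPM in Control libraries. The LFC came to -1.32 ± 0.08 (adjusted *p* = 0.00068). *Prkar2b*, a regulatory subunit of protein kinase A (chr12:31958476-32061296), had 32.9 and 37.5 CPM against 92.3 to 113 CPM, and 50.1 to 104 CPM in Control libraries. Line 3 differed by an LFC of -1.52 ± 0.10 (adjusted *p* = 0.00118), and it passed against Control lines too (adjusted *p* = 0.00758). Reads of *Prkar2b* are not shared with other genes, as 100% of its 75-base words are its own.

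*Slc14a2*, a urea transporter gene on chromosome 18, had 7.66 and 9.63 CPM in line 3, 35.7 to 61.8 CPM in the other HR libraries and 30.7 to 60.1 CPM in Control libraries. This was an LFC of -2.38 ± 0.16 (adjusted *p* = 0.00102), and -2.27 against Control lines (adjusted *p* = 2.56e-05). Of 7 tested genes in this stretch of 0.839 Mb, 5 were shifted. Shifted genes also set the ends of the stretch, which raises this share. *Pstpip2*, a membrane-bending adaptor, fell by 2.21 and *Haus1*, a subunit of the spindle complex augmin, by 0.93, while the second urea transporter gene *Slc14a1* rose by 2.16 (adjusted *p* = 0.0262) and the lectin gene *Siglec15* by 3.47 (adjusted *p* = 0.0306). *Pstpip2*, *Haus1* and *Slc14a1* were chosen after their values were seen. Adjusted *p* was 0.00151 for *Pstpip2* and 0.0361 for *Haus1*.

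*Upb1*, the last enzyme of pyrimidine breakdown, was low in line 3 and in all Control lines. Line 3 had 0.220 and 0.307 CPM, the other HR libraries 4.71 to 17.2 CPM and the Control libraries 0.0284 to 0.197 CPM. The LFC was -5.54 ± 0.65 against the other HR lines (adjusted *p* = 0.0118) and 1.28 against Control lines (adjusted *p* = 0.715). *Upb1* overlaps *Gucd1* on the other strand. *Nmnat3*, an enzyme of mitochondrial NAD synthesis, had 0.220 and 0.590 CPM in line 3 and 2.91 to 4.21 CPM in the other HR libraries (LFC -3.04 ± 0.39, adjusted *p* = 0.0157), and Control line 5 was low as well, with 0.956 and 0.118 CPM. *Cttnbp2*, a cortactin-binding protein of dendritic spines, had 20.1 and 24.9 CPM in line 3 and 1.14 to 3.75 CPM in the other HR libraries (LFC 3.49 ± 0.48, adjusted *p* = 0.0184). Control lines 2 and 5 held 20.2 to 25.2 CPM of it and Control lines 1 and 4 held 1.12 to 5.39 CPM.

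Some genes had next to no reads outside line 3, or none within it, so that the fitted fold change has little meaning and reads are given instead. *Prr19* had 183 and 221 reads in the line 3 libraries and 1 to 10 in the other HR libraries (adjusted *p* = 0.00151). *Gm5886* had 20 and 72 reads against 0 to 1 (adjusted *p* = 0.00697), and *Unc93a* had 75 and 135 against 0 to 16 (adjusted *p* = 0.0174). The itch cytokine receptor gene *Il31ra* had 40 and 53 reads against 0 to 7 (adjusted *p* = 0.0206), and the homeobox gene *Cdx4* had 57 and 93 against 0 to 12 (adjusted *p* = 0.038). Line 3 lay above all Control libraries too for each of these 5 genes. *2410017I17Rik*, next to *Gm8909* and *H2-M10.3* on chromosome 17, had 0 reads in both line 3 libraries and 14 to 168 in the other HR libraries. Set against a floor of 3 reads per library it was at least 27.0-fold lower in line 3, and Control lines 2 and 4 held at most 0.597 CPM. Its adjusted *p* was 0.041.

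Clustered protocadherins were shifted in both directions. These cadherin-like proteins are used in varying combinations by neurons as identity tags, and their genes lie in the *Pcdha*, *Pcdhb* and *Pcdhg* arrays of chromosome 18. Of 55 tested, 8 rose and 2 fell (18.2%, beside 3.55% of all genes). *Pcdhgb8* had 5.21 and 6.14 CPM in line 3 and 0.609 to 1.08 CPM in the other HR libraries. The LFC came to 2.78 ± 0.23 (adjusted *p* = 0.00239), and 0.630 to 0.789 CPM in all Control libraries made it a level of line 3 alone. *Pcdhga5* had 350 and 434 reads against 86 to 110 (LFC 2.15 ± 0.18, adjusted *p* = 0.00267). *Pcdhb9* fell, with 3.23 and 3.92 CPM against 19.8 to 36.7 CPM and 27.1 to 32.2 CPM in Control libraries (LFC -2.94 ± 0.25, adjusted *p* = 0.00265).

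*Pcdhgb5*, *Pcdhb6*, *Pcdhga12*, *Pcdhgb4*, *Pcdhga10* and *Pcdhgc3* rose by 1.56, 1.47, 1.38, 1.2, 1.2 and 0.73 on the log2 scale, and *Pcdha12* fell by 0.61. The changes were neither of 1 sign nor of the whole array. The summed level of the family was 724 and 699 CPM in line 3 and 655 to 745 CPM in the other HR libraries, and the median log2 fold change over the 55 genes was 0.05. Against Control lines, 8 of the 10 passed the threshold in the same direction, and the adjusted *p* was 0.242 for *Pcdhgc3* and 0.716 for *Pcdha12*. The *Pcdhg* genes share their last exons and overlap on 1 strand: 51.4% of the 75-base words of *Pcdhgb8* are its own, 55.3% of those of *Pcdhga5* and 1.57% of those of *Pcdhga10*. *Pcdhb9* shares less, with 96.4% its own. With the connective tissue and vessel marker level as a term all 10 kept their sign but not the call, with adjusted *p* from 0.323 to 0.617. The LFC was then 2.09 for *Pcdhgb8*, -2.12 for *Pcdhb9*, 1.76 for *Pcdhga5*, 1.83 for *Pcdhb6* and 1.21 for *Pcdhgb4*.

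**Figure D5:**
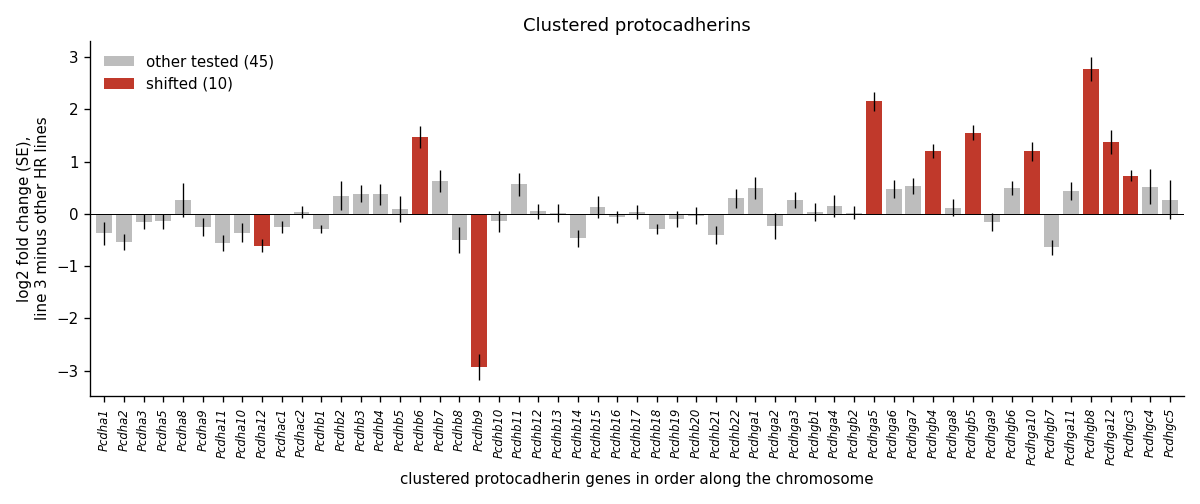
Log2 fold change of line 3 against the other HR lines (bars, with the standard error) for 55 clustered protocadherin genes in their order along the chromosome, shifted genes in red. *Pcdhb9* stands alone downward at -2.94, and the shifted *Pcdhg* genes, up to 2.78 for *Pcdhgb8*, alternate with neighbours near 0.

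Marker genes of connective tissue and vessel walls were among the higher genes. Their lists were added after values were seen, so their counts support nothing beyond themselves. Of 10 connective tissue genes 4 rose (40%), of 10 endothelial genes 6 (60%) and of 10 mural cell genes 3 (30%). Over all genes 2.34% rose. All 30 lay above the other HR libraries in both pools, as did 2960 of all 16810 genes tested. *Lum*, a collagen-binding proteoglycan, had 329 and 331 CPM in line 3, 118 to 159 CPM in the other HR libraries and 137 to 334 CPM in Control libraries (LFC 1.21 ± 0.09, adjusted *p* = 0.00151). *Dcn*, *Postn* and *Fbn1*, genes of the extracellular matrix, rose by 0.78, 1.2 and 1.14. *Vwf*, the clotting factor stored by endothelium, had 45.1 and 43.6 CPM in line 3 against 7.12 to 20.2 CPM (LFC 1.77 ± 0.32, adjusted *p* = 0.0361), and Control line 5 females reached 57.6 CPM. *Egfl7*, *Tek*, *Cdh5*, *Pecam1* and *Eng* of endothelium rose by 1.34, 1.17, 1.14, 0.96 and 0.87. The pericyte genes *Cspg4*, *Pdgfrb* and *Rgs5* rose by 1.58, 1.26 and 0.99.

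In the other lists few genes passed. Of 28 interferon response genes 14.3% were called, beside 3.55% of all genes. The GTPase gene *Iigp1* and the oligoadenylate synthetase genes *Oas2* and *Oas3* rose by 1.51, 1.01 and 1.2. The RNA sensor gene *Ifih1* fell by 0.40. Of 16 tested immediate early genes *Nr4a1* (6.25%) rose by 1.5 (adjusted *p* = 0.0432), and all 16 had positive fold changes with a median of 0.81. Their summed level lay apart only in the female pool, with 500 CPM against 244 to 288 CPM in the other HR females. The male pool had 325 CPM, within the 252 to 376 CPM of the other HR males, and the Control libraries held 237 to 442 CPM. *Csf1r* of macrophages, 1 of 16 immune genes (6.25%), rose by 0.68. That list had 9 positive and 7 negative fold changes, with a median of 0.25. *Aldh1a7*, 1 of 18 nasal epithelium genes (5.56%), rose by 1.64, in a list with 14 positive and 4 negative fold changes. *Acta1*, 1 of 11 skeletal muscle genes (9.09%), fell by 1.73, but 8 of the 11 had positive fold changes and the median was 0.12. Of 92 ribosomal protein genes tested 0 were called, with a median log2 fold change of -0.65. Their summed level was 6006 CPM in the female pool of line 3 and 10504 CPM in the male pool, against 10110 to 13807 CPM in the other HR libraries. Only the female pool thus lay apart, and Control line 5 females had 6011 CPM.

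The shifted genes were spread over the genome, with local groups. On chromosome 18, 36 of 457 tested genes (7.88%) were shifted and on chromosome 6, 45 of 870 (5.17%), beside 3.55% of all. Groups of 3 or more, with starts at most 1 Mb apart, numbered 38 and held 172 genes. Each group runs from its first to its last shifted gene, so the share of shifted genes within any group is raised by this definition. The largest 3 had 12 genes around the protocadherins, 12 from *Clec4n* to *Kcna5* (chr6:123229843-126535412), and 9 on chromosome 11. The chromosome 6 group held, beside the V2R genes and *Vwf* and *Ano2*, the potassium channel gene *Kcna5*, which fell by 0.79. *Tnfrsf1a*, *Clec4n*, *Cd163* and *C1rl*, genes of inflammation, macrophages and complement, rose by 0.50, 1.29, 2.16 and 2.29. The protocadherin group also held *1700086O06Rik* and *Spry4*, higher by 1.63 and 1.32.

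The chromosome 11 group spanned 2.29 Mb (chr11:82951349-85238304) with 9 of 45 tested genes shifted. *Slfn8*, a Schlafen gene, had 0.403 and 0.425 CPM in line 3 against 2.29 to 4.17 CPM, and 2.11 to 5.54 CPM in Control libraries (LFC -2.89 ± 0.33, adjusted *p* = 0.0105). The adjacent *Slfn5* rose by 0.90. *Myo19*, a myosin of mitochondria, and *Rasl10b* rose by 0.94 and 1.83, and *Heatr6* and the antisense genes *Ggnbp2os* and *Appbp2os* fell by 0.46, 1.04 and 1.13. *Acaca* belongs to the same group. A compact group on chromosome 4, chosen after its values were seen, had 4 of 5 tested genes lower within 0.0398 Mb. In it *Perm1*, a regulator of muscle mitochondria, had 28.3 and 29.2 CPM in line 3 against 72.2 to 95.3 CPM (LFC -1.51 ± 0.14, adjusted *p* = 0.00369), and *Plekhn1* and *Klhl17* fell by 0.57 and 0.81. *Samd11* had 1 and 6 reads in line 3 and 12 to 34 in the other HR libraries (adjusted *p* = 0.0361). On chromosome 13, also chosen after its values were seen, 4 of 4 tested genes of small matrix proteins rose, *Aspn* by 1.23, *Ecm2* by 1.05, *Ogn* by 0.88 and *Omd* by 0.74.

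Set against Control lines, the shifted genes fell into 3 classes. In 186 (31.2%), 118 higher and 68 lower, line 3 lay outside all 7 other libraries of the table in both sexes. Over all tested genes this share was 6.5%. A shifted gene lies outside the other HR libraries of each table by definition, so part of the difference was set beforehand. In 175 (29.4%, beside 42.5% of all tested genes) line 3 lay inside the Control range in both tables, and the other 235 were mixed. The test of line 3 against Control lines called 35 of 17181 genes (0.204%), 22 higher and 13 lower, with 1189 at an unadjusted *p* under 0.05. It uses the same line 3 libraries. Of the 596 shifted genes 29 passed it with the same sign, and all of these lay outside the other 7 libraries of the table in both sexes. Beside the genes above they included *Il17d*, a cytokine gene, with 31.7 and 21.6 CPM in line 3, 6.51 to 10.8 CPM in the other HR libraries and 6.42 to 11.4 CPM in Control libraries. They also included the centromere protein gene *Itgb3bp*, with 3.67 and 3.63 CPM in line 3, 11.3 to 14.0 CPM in the other HR libraries and 7.76 to 13.4 CPM in Control libraries. Both were chosen after their values were seen.

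Fits were repeated without 1 library at a time, and also without both pools of 1 other HR line at a time. In all of these fits, 11 of the 596 genes stayed under the threshold, 4 higher and 7 lower. They were *Tmem181c-ps*, *Vmn2r123*, *Vmn2r23* and *Lum* among the higher, and *Vmn2r19*, *Dynlt1a*, *Acaca*, *Slc14a2*, *Prkar2b*, *Pstpip2* and *Vmn2r25* among the lower. With line as a random effect in limma-voom, 109 of the 596 stayed called, and with the marker level as a term 4 did: *Tmem181c-ps*, *Vmn2r19*, *Dynlt1a* and *Upb1*, with adjusted *p* of 0.0441, 0.0441, 0.0487 and 0.0487.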

How the data were processed

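VNO RNA of 16 pools of 3 mice was sequenced after depletion of ribosomal RNA, as single-end reads of 75 nucleotides from directional libraries. The authors aligned reads to GRCm38 with STAR 2.6.1d, accepting 0 mismatches and 1 location, and deposited raw counts per gene, without normalization, in 1 table per sex. The deposited RPKM values, scaled by the authors to gene length and library size, served as an alternative. The counting tool, the annotation and the use of strand are not given in the sources used here. Sex coincides with the table and may coincide with the sequencing run. Each table listed 24411 genes. After 4 entries with repeated names (2 names) were left out, 24407 genes were joined, and 23 names that a spreadsheet had turned into dates were used as listed. The table of males also holds 4 summary entries, which were left out: unmapped reads were 16.1 to 17.7%, reads on no feature 16.7 to 18.5% and ambiguous reads 0.837 to 1.09% of all counts listed for a library.

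Counts were analysed with edgeR 4.0.16 in R 4.3.3 (TMM, filterByExpr at a minimum count of 10, quasi-likelihood test, table as a term, Benjamini-Hochberg over 16810 genes, threshold 0.05), on the 8 HR libraries, and on 16 for the comparison with Control lines. Log2 CPM used a prior count of 2. Alternatives used limma 3.58.1, DESeq2 1.42.0 and other settings, 24 planned and 2 added after the data were seen. Tables and plots used Python 3.11.15, pandas 2.3.3, numpy 2.4.6 and matplotlib 3.10.9. The tests were tested on simulated data. Positions are from GENCODE M21 on GRCm38 (594 of 596 shifted genes) and upstream sequences from RefSeq GRCm38.p6. The word check used all GENCODE transcripts.

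HR line 3, the gene lists and the tests were chosen with earlier results of these data known. Named were, among shifted genes, the 10 highest and 10 lowest fold changes with at least 1 CPM in the higher group, the 10 smallest *p*, receptors, members of symbol lists and genes of the largest 3 position groups, and a few markers whatever their values. Chi-square per degree of freedom between the male and the female pool was 40.6 to 142 for the HR lines, so neither was a copy of the other. The *p*-values of the main fit rest on a spread that mixes differences between the other HR lines with differences between pools of 3 mice. That fit treated the pools of a line as independent, which they are not. Control lines were read only as a background for line 3. The values of 1 shifted gene are not reported here.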

Additional observations from a re-analysis of the deposited data

Results flagged for a closer look

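Among the 6 libraries of the other HR lines, 1 library stood far from the others (Dixon's ratio of gap to range above 0.625) for 4 of the 77 named shifted genes, and chance sets apart about 1 in 20 such groups. The highest library was the female pool of line 7 for *Unc93a* (ratio 0.680, 0.337 CPM) and *Il31ra* (0.790, 0.147 CPM), and the male pool of line 8 for *Cdx4* (0.808, 0.311 CPM). The lowest was the female pool of line 6 for *Pcdha12* (0.714, 14.9 CPM). For each of these genes both line 3 libraries lay beyond all 6.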

How the results depend on the processing

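Of the 596 shifted genes, 580 kept the call and the sign with DESeq2's size factors in edgeR, 545 with upper quartile scaling, 560 with no filter on low counts, 556 at a minimum count of 50 and 592 in DESeq2. The number of genes called (and of these shifted, where different) was 594, 581, 590 (589), 571 and 2423 (2303) in the same order. The split was 428 higher and 153 lower with upper quartile scaling. On log2(RPKM + 1) limma called 574, without a filter 588, and on log2(RPKM + 0.1) 307. The number was 110 in limma-voom when line was a random effect, 3624 (3114) with a term for each line, 0 on counts summed per line, 908 (905) without the table and 68 with all 16 libraries. It was 2983, 36 and 88 without line 6, 7 or 8. Leaving out 1 library at a time gave 12 to 1762, called and shifted alike. Of 2 settings chosen after seeing the data, neuron scaling gave 1745 (1741) and the connective tissue and vessel marker term 4.

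Neuron scaling gave 1 V1R gene higher and 3 lower (median 0.16) and 5 V2R genes higher and 5 lower (median -0.049). The marker term gave 0 V1R genes lower (median 0.31) and 0 V2R genes higher and 1 lower (median -0.22). *Ifih1* turned to 0.023 under neuron scaling, which raised the median of all genes from -0.02 to 0.40, and *C1rl* to -0.022 and *Tfap2e* to 0.00011 with the marker term. The cause of the changes with the marker term was not tested. No paired analysis was possible because the number in the titles is that of the line, so no number is shared between line 3 and the other lines, and the term for each line is the nearest fit. Line 3 was represented by 1 library per sex, so no spread among pools of the same line and sex could be had. The female library of line 3 had the fewest counts of the HR libraries, which limits genes with few reads.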

Other observations

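Serpins, a family of protease inhibitors, had a median log2 fold change of 0.44 over 32 tested genes, with 6 higher and 1 lower. That is 21.9% called, beside 3.55% of all genes. Of the liver-type protease inhibitor genes of chromosome 12, *Serpina1a* had 33.8 CPM in the female and 8.97 CPM in the male pool of line 3 against 2.19 to 5.09 CPM in the other HR libraries (log2 fold change 2.37, adjusted *p* = 0.0229, edgeR's quasi-likelihood test), and *Serpina1c* had 26.2 and 11.9 CPM against 2.78 to 8.83 CPM. Only 26.4% of the 75-base words of *Serpina1c* are its own. Control lines reached 42.3 and 26.2 CPM. *Serpina9* rose by 1.98. The summed level of all serpins was nevertheless below the other HR libraries, 1270 and 1384 CPM against 1475 to 1862 CPM. All of these were chosen after their values were seen.

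Beside 3.55% of all genes, solute carriers had 4.53% called and zinc finger genes 1.14%. Solute carriers gave 9 higher and 5 lower genes of 309 tested, zinc finger genes 4 and 0 of 351, cytochrome P450 genes 1 and 2 of 47, and odorant receptor genes 2 and 0 of 42. Predicted genes and clones gave 12 and 14 of 1227 tested. The shares called were 6.38% for cytochrome P450 genes, 4.76% for odorant receptor genes and 2.12% for predicted genes and clones.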
